A study of Mus musculus with 6 samples.

Results

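The 6 actin genes of the mouse and 3 genes of the serum response factor (SRF) axis were followed in the left ventricles of adult mice whose dams had been given caffeine or vehicle. The genes were the striated muscle actins Acta1 and Actc1, the smooth muscle actins Acta2 and Actg2, the cytoplasmic actins Actb and Actg1, the regulators Srf and Myocd, and Abra. They were 9 of the 43629 genes in the count tables, taken by symbol, and 8 of the 9 passed the filter on low counts. Acta1 and Abra were chosen by earlier fits of this same contrast, in which both were past the thresholds. Their levels, fitted fold changes and intervals are therefore a description of these hearts, given with no p-value and used as support for nothing, whereas the other genes joined as relatives of the family or pathway and are given with p-values adjusted over all genes tested.

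Poly(A) RNA of the left ventricle was sequenced from 6 male CD-1 offspring (F1) aged 1 year. The dams of the vehicle group (n = 3) received normal saline by intraperitoneal injection, and the dams of the caffeine group (n = 3) received caffeine at 20 mg/kg once daily from embryonic day (E) 6.5 to 9.5. One field of the sample labels ends the exposure at E10.5. CD-1 is an outbred stock, the labels name no transgene or mutant allele in either group, and the sources used here do not say which hearts came from the same litter, so p-values measure the spread between these hearts.

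Actin is the protein of the thin filament of the sarcomere and of the cytoskeleton of every cell. Adult mouse ventricle mainly uses cardiac actin, the product of Actc1, while the skeletal isoform, the product of Acta1, is abundant in the fetal heart and falls after birth. Many actin genes are bound by SRF at a short element called the CArG box. SRF works with myocardin (Myocd), a cofactor of cardiac and smooth muscle, and with the myocardin-related transcription factors, which are held in the cytoplasm by monomeric actin. Abra, also called STARS, is an actin-binding protein of striated muscle that promotes the release of those cofactors.

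Each heart yielded between 7613011 and 10483101 counts over all genes, and every caffeine total (at most 9153997) was below every vehicle total (at least 9228359). Levels are given as CPM, counts relative to library size, scaled with the trimmed mean of M values (TMM), whose factors ran from 0.94 to 1.072. A count of 3 corresponded to 0.286 to 0.394 CPM. The 7 cardiomyocyte markers were Tnnt2, Tnni3, Myh6, Actn2, Ryr2, Pln and Mb. They summed to 50909 to 58683 CPM in the vehicle hearts and to 49753 to 52345 CPM in the caffeine hearts. None of the 7 passed the thresholds, beside 0.107% of all genes tested, so this count says little. Their log2 fold changes ran from -0.31 (Myh6) to 0.12 (Mb). The hearts did not overlap for 1 of the 7, Mb with caffeine above, beside 7.11% of all genes. Of the 12 skeletal muscle markers, Myh1, Myh4, Myh3 and Tnnc2 were at 0 in every heart. The remaining markers had counts and are given with the markers of other cells below. In RNA from whole tissue, fewer cells of a type and less RNA per cell cannot be told apart.

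The sequences upstream of the start sites are shown first, because they were searched for the letters of the CArG box. Binding of SRF was not measured. Promoter windows of 300 bases, from 250 bases before to 50 bases after the RefSeq start on GRCm38.p6, were found for 5 of the 9 genes (Acta1, Actc1, Actg1, Srf and Acta2). An exact CArG box, searched on both strands, was in 4 of the 5 windows, against 535 of 32851 windows (1.63%) over all RefSeq starts. These genes were listed as actins and as the SRF axis, so nothing is read from this count. The stretches below run 5′ to 3′ on the minus strand, which carries all 9 genes, and the capitals mark the CArG box. Each runs from 150 bases before the start up to the first annotated exonic base. Acta1 has no annotated exonic base before the start, and its stretch ends at the start.
Acta1, chr8:123894776-123894925: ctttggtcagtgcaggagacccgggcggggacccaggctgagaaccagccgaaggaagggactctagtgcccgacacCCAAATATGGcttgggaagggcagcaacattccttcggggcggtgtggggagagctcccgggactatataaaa
Actc1, chr2:114052888-114053025: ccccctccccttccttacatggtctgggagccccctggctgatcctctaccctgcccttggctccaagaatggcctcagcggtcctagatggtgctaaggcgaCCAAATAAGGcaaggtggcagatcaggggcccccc
Actg1, chr11:120348543-120348645: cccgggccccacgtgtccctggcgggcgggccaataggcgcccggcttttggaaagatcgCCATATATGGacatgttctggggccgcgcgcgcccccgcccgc
Srf, chr17:46556176-46556312: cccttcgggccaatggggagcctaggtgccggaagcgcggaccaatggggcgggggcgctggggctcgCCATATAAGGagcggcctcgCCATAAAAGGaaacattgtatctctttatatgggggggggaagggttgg

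The box lay 73 to 64 bases before the start of Acta1, 47 to 38 bases before that of Actc1 and 90 to 81 bases before that of Actg1. Srf carried one box from 82 to 73 bases and another from 62 to 53 bases before its start. The Acta1, Actg1 and Srf stretches lie upstream of the annotated exons of these genes, while the Actc1 stretch lies in an intron of a longer annotated Actc1 transcript. The window of Acta2 held no exact match, which says only that these letters are not in this window. The first annotated exonic base of Acta2 lies at -217 from the RefSeq start. Most of its window is therefore inside the annotated gene, and the bases further upstream were not searched. The 4 genes with a box had log2 fold changes between -0.15 (Actg1) and 1.53 (Acta1), given side by side as a description.

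**Figure D1:**
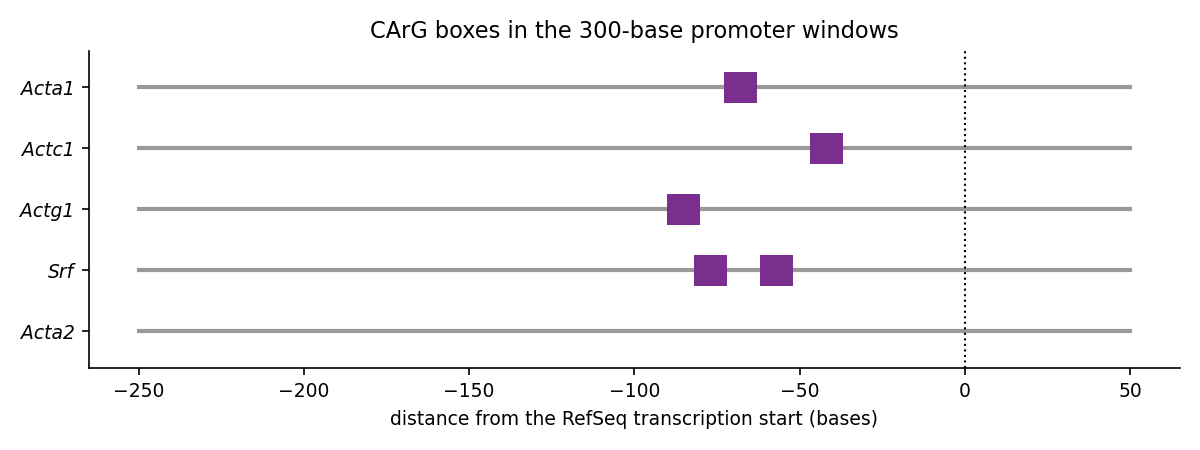
Position of each exact CArG box (purple) in the 300-base promoter windows of the 5 genes with a window (grey lines), in bases from the RefSeq start (dotted line). The boxes of Acta1, Actc1, Actg1 and Srf all lie between 90 and 38 bases before the start. None was found in the window of Acta2, most of which lies inside the annotated gene.

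Acta1 (ENSMUSG00000031972, chromosome 8, 123891769 to 123894751, minus strand, GRCm38) encodes skeletal muscle alpha actin. Its level was 956, 761 and 1110.5 CPM in vehicle replicates 1, 2 and 3, and 2539, 3148 and 2455 CPM in caffeine replicates 1, 2 and 3. All 3 caffeine hearts were well above all 3 vehicle hearts. The group means were 943 ± 175 CPM (SD, n = 3) with vehicle and 2714 ± 378 CPM (SD, n = 3) with caffeine, a 2.88-fold ratio. The fitted log2 fold change was 1.53 (SE 0.14, 95% interval 1.21 to 1.84), the 32nd highest of the 13092 genes tested. Acta1 was also among the abundant transcripts of the ventricle, with rank 28 of the genes tested in level per kilobase of exon.

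Actc1 (ENSMUSG00000068614, chromosome 2, 114047282 to 114053548, minus strand) encodes cardiac alpha actin and had the highest level of the 9 genes. It was measured at 13449, 13787 and 12970 CPM in the vehicle hearts and at 14996, 15635 and 14129 CPM in the caffeine hearts. The groups did not overlap, yet the gap between the nearest hearts was small beside the level of the gene. The means were 13402 ± 411 and 14920 ± 756 CPM (SD, n = 3 each), a ratio of 1.11, and the log2 fold change of 0.15 (SE 0.09, 95% interval -0.05 to 0.36) was not past the thresholds (adjusted p = 0.681, edgeR quasi-likelihood test). With library size as the only scaling the log2 fold change was 0.07 and the groups overlapped, since caffeine replicate 1 (14071 CPM) fell below vehicle replicate 2 (14340 CPM).

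Both striated actins can be compared with each other only per length, so counts were divided by the length of all exons of each gene (1536 bases for Acta1 and 1618 for Actc1). Per kilobase, Acta1 had 614 ± 114 CPM with vehicle and 1767 ± 246 CPM with caffeine, and Actc1 had 8283 ± 254 and 9221 ± 467 CPM (SD, n = 3 each). Acta1 thus made up 6.97%, 5.50% and 8.27% of striated actin transcripts in the vehicle hearts and 15.1%, 17.5% and 15.5% in the caffeine hearts. The caffeine hearts were all above the vehicle hearts, and the spread within a group was small beside the gap. The mean share was 6.91% ± 1.39 with vehicle and 16.0% ± 1.28 with caffeine (SD, n = 3 each), a difference of 9.12 percentage points. Counts alone, without the length, gave shares from 5.23% (95% Wilson interval 5.12 to 5.35%) to 7.89% (7.75 to 8.03%) in the vehicle hearts and from 14.5% (14.3 to 14.7%) to 16.8% (16.6 to 16.9%) in the caffeine hearts. These intervals cover counting error only and are far narrower than the differences between hearts of a group.

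The mean level of Actc1 was not lower in the caffeine hearts. The sum of both per kilobase was 8934, 9017 and 8739 CPM in the vehicle hearts and 10921, 11713 and 10331 CPM in the caffeine hearts, with no overlap. Of the difference between the group means, 1153.3 CPM per kilobase came from Acta1 and 938 from Actc1 with TMM scaling, and 1080.2 and 417 with library size only. There were 13.9 ± 3.08 Actc1 transcripts for each Acta1 transcript with vehicle and 5.26 ± 0.479 with caffeine (SD, n = 3 each). All 6 actins together took 1.43%, 1.55% and 1.54% of all counts in the vehicle hearts and 1.68%, 1.85% and 1.70% in the caffeine hearts.

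**Figure D2:**
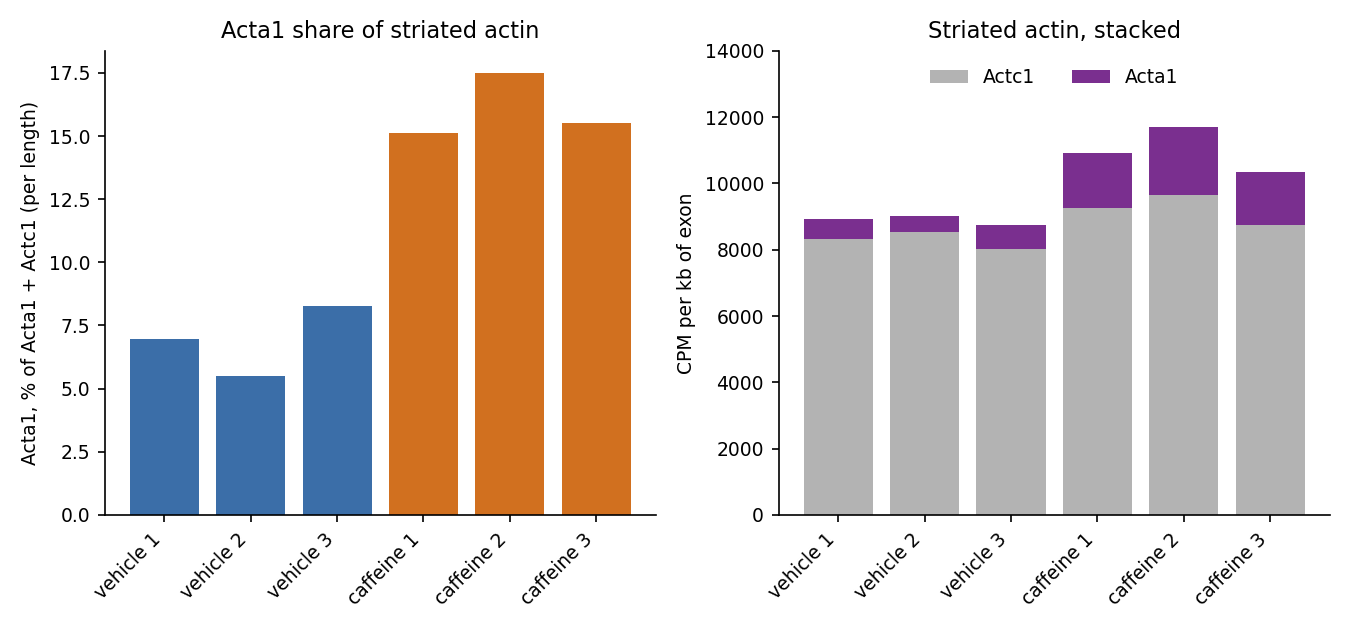
Left, Acta1 as a percentage of Acta1 plus Actc1 transcripts (counts per length) in each heart, vehicle in blue and caffeine in orange. Right, CPM per kilobase of exon of Actc1 (grey) and Acta1 (purple), stacked, in the same 6 hearts. The share is 5.50 to 8.27% in the vehicle hearts and 15.1 to 17.5% in the caffeine hearts, and the stacked sum is higher in each caffeine heart.

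The actin genes are close in sequence, and reads of 75 bases must tell them apart. The coding sequences of Acta1 and Actc1 were 86.3% identical, and the 10 pairs among the 5 actins with a full coding sequence were between 82.6 and 86.3% identical. The first 90 coding bases of both striated actins show how the differences are spread, with the 14 bases that differ in capitals.
Acta1: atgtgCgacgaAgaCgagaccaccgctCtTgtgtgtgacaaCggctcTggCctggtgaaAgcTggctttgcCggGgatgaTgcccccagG
Actc1: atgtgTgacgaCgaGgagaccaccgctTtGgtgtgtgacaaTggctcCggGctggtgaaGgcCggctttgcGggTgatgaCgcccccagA
The differences were spread over the whole stretch, and none of the 75-base words of the longest Actc1, Acta2 or Actg2 transcript occurred in a transcript of another gene. Of the Acta1 words 0.44% did, and of the Actb words 2.6%.

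Acta2 (ENSMUSG00000035783, chromosome 19, 34241090 to 34255590, minus strand) encodes the smooth muscle alpha actin of vessel walls and of myofibroblasts. Its level was 53.0, 57.2 and 87.9 CPM in the vehicle hearts and 42.4, 51.9 and 65.4 CPM in the caffeine hearts. The groups overlapped, and vehicle replicate 3 was the highest heart. The log2 fold change was -0.31 (SE 0.20, 95% interval -0.74 to 0.13, adjusted p = 0.709, edgeR quasi-likelihood test). The smooth muscle markers Myh11, Cnn1, Tagln, Smtn and Lmod1 summed to 144 to 159 CPM with vehicle and 111 to 165 CPM with caffeine. In that test 0 of 5 passed the thresholds, beside 0.107% of all genes, and 0 had an unadjusted p below 0.05, beside 8.82%. The exact test called 0 of them and DESeq2 0.

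Actg2 (ENSMUSG00000059430, chromosome 6, 83512905 to 83536265, minus strand), the enteric smooth muscle actin, had 5, 3 and 8 counts in the vehicle hearts and 3, 4 and 1 in the caffeine hearts. It did not pass the filter and was not tested, and at this depth no difference could be seen.

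Actb (ENSMUSG00000029580, chromosome 5, 142903115 to 142906754, minus strand), the cytoplasmic beta actin often used as a reference gene, was measured at 232, 275 and 226 CPM with vehicle and 301, 286 and 267 CPM with caffeine. The groups overlapped, since vehicle replicate 2 was above caffeine replicate 3. The log2 fold change was 0.22 (SE 0.10, 95% interval 0.01 to 0.44), which missed the threshold once adjusted over all genes (adjusted p = 0.557, edgeR quasi-likelihood test).

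Actg1 (ENSMUSG00000062825, chromosome 11, 120345690 to 120348542, minus strand), the cytoplasmic gamma actin, had only 22, 16 and 27 counts in the vehicle hearts and 16, 27 and 4 in the caffeine hearts. Caffeine replicate 3 was the lowest and the groups overlapped. The log2 fold change was -0.15 with a wide interval (SE 0.49, 95% interval -1.24 to 0.94, adjusted p = 0.964, edgeR quasi-likelihood test), and its sign turned when vehicle replicate 3 (0.07) or caffeine replicate 3 (0.33) was left out. The value is uncertain, because 1023 of the 1878 words of 75 bases in its longest transcript (54.47%) also occur in transcripts of 10 other genes. Among these genes, the processed pseudogene Gm12715 had 40 to 82 counts in a heart, Gm8399 had 41 to 63, and Actg-ps1 had 0. Whether shared reads lower the count of Actg1 was not tested.

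In the pool of all 6 actins, per length, Actc1 held 91.8% ± 1.37 with vehicle and 83.0% ± 1.22 with caffeine, and Acta1 held 6.82% ± 1.37 and 15.8% ± 1.27 (SD, n = 3 each). Actb held 1.01% ± 0.0964 and 0.957% ± 0.0565, and Acta2 held 0.334% ± 0.102 and 0.220% ± 0.0577, with overlapping hearts for both. Actg1 and Actg2 each held less than 0.02% in every heart, and the share of Actg1 is as uncertain as its count, because of the shared words. Of the 6 shares, only those of Acta1 and Actc1 had hearts that did not overlap between the treatments. The shares of a heart add up to the whole pool, so a higher share of Acta1 lowers that of Actc1. The mean level of Actc1 itself was not lower with caffeine.

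Abra (ENSMUSG00000042895, chromosome 15, 41864076 to 41869720, minus strand) was measured at 78.4, 84.5 and 72.0 CPM in the vehicle hearts and at 138, 162 and 122 CPM in the caffeine hearts. Every caffeine heart was above every vehicle heart. The means were 78.3 ± 6.24 and 141 ± 20.2 CPM (SD, n = 3 each), a 1.80-fold ratio, and the log2 fold change was 0.84 (SE 0.11, 95% interval 0.59 to 1.10), the 153rd highest of the genes tested. Abra left the genes past the thresholds when vehicle replicate 2, vehicle replicate 3 or caffeine replicate 1 was omitted. Its log2 fold changes ran from 0.73 to 0.94 over all alternatives, while Acta1 stayed past the thresholds in each of its 12 alternatives. Both genes were chosen by fits of these same hearts, so nothing is read from their calls in refits. Per kilobase there were 23.7 ± 6.21 Acta1 transcripts for each Abra transcript with vehicle and 37.5 ± 1.79 with caffeine (SD, n = 3 each).

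Srf (ENSMUSG00000015605, chromosome 17, 46548329 to 46556175, minus strand), the transcription factor of the axis, had 210, 228 and 206 CPM with vehicle and 237, 217 and 208 CPM with caffeine. The hearts were interleaved. The log2 fold change was 0.04 (SE 0.09, 95% interval -0.15 to 0.23, adjusted p = 0.948, edgeR quasi-likelihood test), and its sign turned with library size as the only scaling (-0.05) and without caffeine replicate 1 (-0.02).

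Myocd (ENSMUSG00000020542, chromosome 11, 65176561 to 65269989, minus strand) had 49.9, 54.1 and 57.4 CPM in the vehicle hearts and 40.3, 50.9 and 46.2 CPM in the caffeine hearts. A pair of caffeine hearts lay below all vehicle hearts, and the remaining one fell among them. The log2 fold change was -0.23 (SE 0.11, 95% interval -0.47 to 0.01, adjusted p = 0.588, edgeR quasi-likelihood test).

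**Figure D3:**
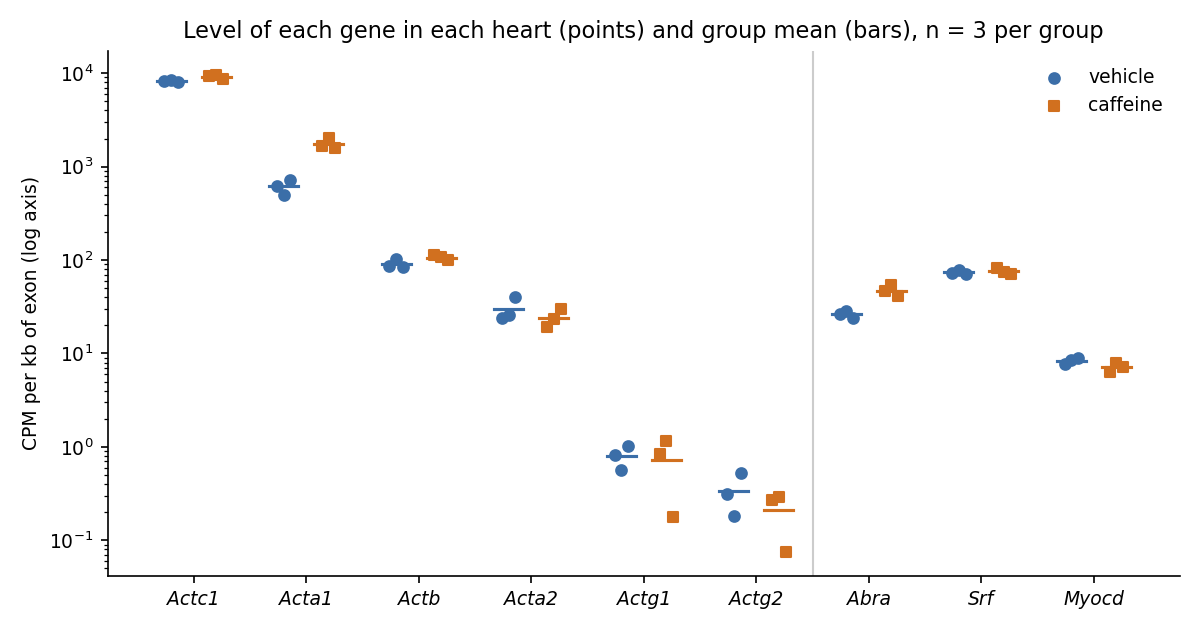
Level of the 9 genes in each heart as CPM per kilobase of exon on a log axis, vehicle as blue circles and caffeine as orange squares, with the group means as bars (n = 3 per group). With TMM scaling the groups are separate for Actc1, Acta1 and Abra (with library size only, those of Actc1 overlap), and Actc1 is the highest gene with 8283 CPM per kilobase in the mean of the vehicle hearts.

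Over the 9 genes, the order of the mean level per kilobase with vehicle was Actc1 (8283), Acta1 (614), Actb (91.1), Srf (74.2), Acta2 (30.1), Abra (26.3), Myocd (8.38), Actg1 (0.802) and Actg2 (0.339). The neighbours Acta2 and Abra did not differ beyond their spread with vehicle, where their hearts overlapped. With caffeine Abra (47.2) stood above Acta2 (24.3), and no other pair of neighbours changed places. Actg1 and Actg2 overlapped with caffeine, where both had a few counts only, and the place of Actg1 is uncertain because of its shared words.

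Of the 8 genes tested, 2 were past the thresholds of an adjusted p below 0.05 and a fold change above 1.5, both higher with caffeine, beside 0.107% of all genes tested. The hearts of the groups did not overlap for 3 of 8 genes, with caffeine above (Acta1, Abra and, with TMM scaling but not with library size only, Actc1), beside 7.11% of all genes, and for 0 of 8 with caffeine below, beside 7.12%. Since Acta1 and Abra were listed for these values, nothing is read from the counts. The median log2 fold change of the 8 genes was 0.10, against 0.00 over all genes tested.

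**Figure D4:**
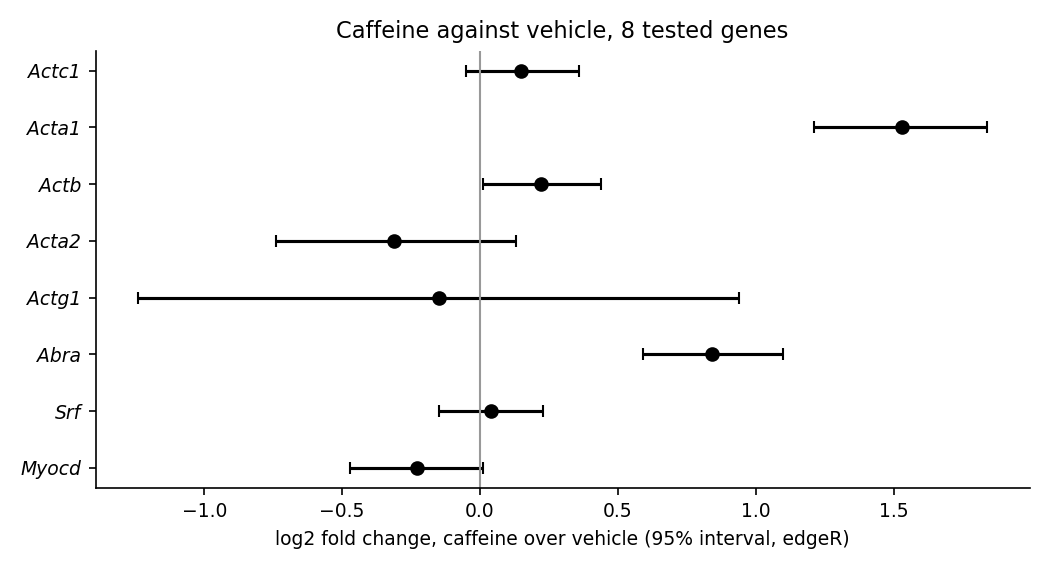
Fitted log2 fold change of caffeine over vehicle (points) with its 95% interval (bars) from the edgeR quasi-likelihood fit for the 8 genes tested. The interval of Acta1 runs from 1.21 to 1.84 and that of Abra from 0.59 to 1.10, and the widest is that of Actg1, from -1.24 to 0.94.

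Known targets of SRF outside the 9 genes were examined in lists drawn from textbook knowledge. All gene lists used here were chosen with earlier results of these data known. Their counts and the p-values of their genes are therefore a description of these hearts and are used as support for nothing. Of 47 targets, 44 were tested and 1 was past the thresholds with a higher level in caffeine hearts, beside 0.0840% of all genes, and 0 with a lower level, beside 0.0229%. An unadjusted p below 0.05 was found for 12 of the 44 targets, beside 8.82% of all genes. The hearts did not overlap for 11 targets with caffeine above, beside 7.11% of all genes, and for 1 with caffeine below, beside 7.12%. The median log2 fold change of the targets was 0.09.

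The target past the thresholds was Nppb, which encodes B-type natriuretic peptide, a hormone released by the loaded ventricle. It was measured at 158, 151 and 236 CPM in the vehicle hearts and at 779, 672 and 608 CPM in the caffeine hearts, with a log2 fold change of 1.92 (SE 0.16, adjusted p = 0.00228, edgeR quasi-likelihood test). All 3 caffeine hearts were far above the vehicle hearts. Nppa, which encodes atrial natriuretic peptide, ran from 51.3 to 180 CPM with vehicle and from 266 to 433 CPM with caffeine, without overlap. Its log2 fold change of 1.73 (SE 0.35) missed the threshold in the quasi-likelihood test (adjusted p = 0.125) and passed it in the exact test. Of the other atrial markers, Myl4 had 1.23 to 1.76 CPM with vehicle and 0.70 to 1.64 CPM with caffeine, with overlap, and Myl7 and Sln were under 1 CPM in every heart.

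The 15 cardiac and sarcomeric targets had a median log2 fold change of 0.18, and 7 of them did not overlap, all with caffeine above, beside 7.11% of all genes. Besides the natriuretic peptides these were Myh7, Ankrd1, Tnnc1, Lmod2 and Fhl1, named after their values were seen. Myh7, the slow beta myosin heavy chain, had 747 ± 33.3 CPM with vehicle and 957 ± 93.3 CPM with caffeine (SD, n = 3 each, log2 fold change 0.36, adjusted p = 0.246, edgeR quasi-likelihood test). Ankrd1, a stretch-responsive protein of the sarcomere, had 2429 ± 903 and 3853 ± 79.6 CPM (log2 fold change 0.67, adjusted p = 0.317, edgeR quasi-likelihood test, n = 3 each). The lowest value of the list was that of Myh6, the fast alpha myosin heavy chain (-0.31, SE 0.15, adjusted p = 0.599, edgeR quasi-likelihood test).

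The immediate early targets, genes that respond within minutes to growth signals, ranged from genes too low to test to Mcl1, a survival factor with 197 to 251 CPM named after its values were seen, and 6 of 9 were tested. Their median log2 fold change was 0.42, and 0 of 6 passed the thresholds with edgeR, and 4 had an unadjusted p below 0.05, beside 8.82% of all genes (0 called by the exact test and 0 by DESeq2). Fos had 1.27, 2.65 and 2.03 CPM with vehicle and 4.06, 5.76 and 3.64 CPM with caffeine (log2 fold change 1.17, SE 0.32, adjusted p = 0.269, edgeR quasi-likelihood test). The caffeine hearts were above the vehicle hearts at these few counts. Ier3 was the lowest of the list (-0.33).

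The smooth muscle and cytoskeletal targets were near the middle of all genes, with a median log2 fold change of 0.06 in both lists. None of the 11 smooth muscle targets and none of the 12 cytoskeletal targets passed the thresholds with edgeR (0 and 0 by the exact test, 0 and 0 by DESeq2). An unadjusted p below 0.05 was found for 0 and 1 of them, beside 8.82% of all genes. The smooth muscle list ran from Cnn1, calponin (-0.49, SE 0.55), to Csrp1, a LIM domain protein (0.39, SE 0.26). The cytoskeletal list ran from Vcl, vinculin of adhesion sites (-0.21, SE 0.13), to Ccn2, a secreted matrix protein (0.35, SE 0.15).

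**Figure D5:**
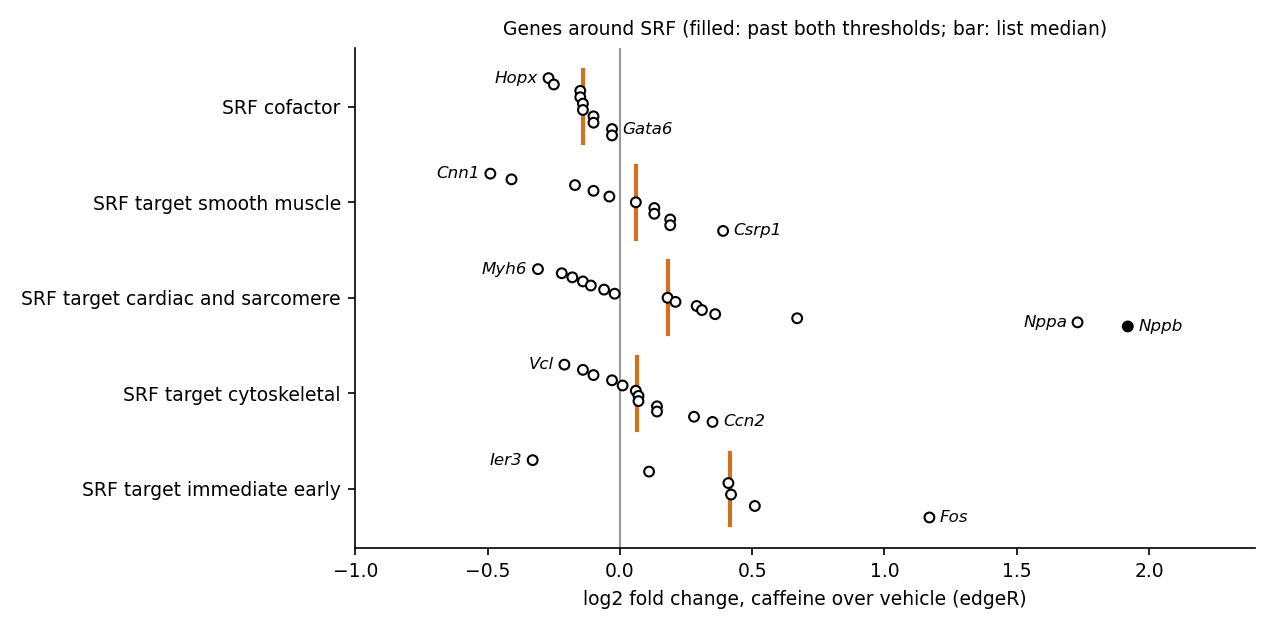
Fitted log2 fold change of caffeine over vehicle for each tested gene of the SRF cofactor and SRF target lists (circles, filled where past both thresholds) with the median of each list (orange bar). The only filled circle is Nppb, the median of the immediate early list is 0.42, and the 10 cofactors lie between -0.27 and -0.03.

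The cofactors of SRF were looked at next. All 10 were tested, and 0 passed the thresholds in either direction with edgeR (0 by the exact test and 0 by DESeq2). An unadjusted p below 0.05 was found for 1 of them, beside 8.82% of all genes. The 10 cofactors all had fitted log2 fold changes below 0, from -0.27 for Hopx, a homeodomain-only protein that restrains SRF, to -0.03 for Gata6, a zinc finger factor of the heart. Their median was -0.14, against 0.00 over all genes tested, and the hearts of the treatments overlapped for each of the 10. The share of all genes with a value below 0 was not computed, so nothing is read from the common sign. Mrtfb, a myocardin-related factor named after its values were seen, had 53.0 ± 3.83 CPM with vehicle and 44.7 ± 4.68 CPM with caffeine (SD, n = 3 each), and the groups overlapped.

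The genes whose pattern over the 6 hearts was most like that of Acta1 were found by the root mean square difference of centred log2 CPM. They were Grin2c (0.218), Nppb (0.276), Dupd1 (0.289), Cacna1d (0.291) and Tdrd9 (0.308), and Abra came at position 32 (0.417). For Abra they were Pola2 (0.0752), Nek8 (0.0888), Tfcp2l1 (0.100), Gm5808 (0.131) and Col14a1 (0.146). These are descriptions over 6 hearts and carry no test.

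Markers of other cells were set beside the actins. Of the skeletal muscle markers, Ckm and Mybpc2 passed the filter in these hearts. The other 10 summed to 1.04 to 1.56 CPM in the vehicle hearts and to 0.14 to 0.451 CPM in the caffeine hearts. Each of the 10 had at most 7 counts in a heart. The sums did not overlap, with caffeine below. These 10 genes failed the filter, so low sums follow from that choice. Mybpc2 (18.4 to 28.8 and 20.7 to 24.3 CPM) overlapped between the treatments, and so did the whole list of 12 markers, nearly all of it Ckm (2026 to 2628 and 1930 to 2391 CPM). The fibroblast markers summed to 770 to 881 CPM with vehicle and to 943 to 1082 CPM with caffeine, and the macrophage markers to 181 to 287 and 219 to 436 CPM. The fibroblast sums did not overlap between the treatments, and the macrophage sums did. None of the 6 fibroblast and none of the 6 macrophage markers passed the thresholds with edgeR (0 and 1 by the exact test, 0 and 0 by DESeq2). An unadjusted p below 0.05 was found for 3 and 1 of them, beside 8.82% of all genes. All 6 fibroblast and all 6 macrophage markers had log2 fold changes above 0. Their medians were 0.25 and 0.46, against 0.00 over all genes tested, and the macrophage values ran from 0.05 (Cd68) to 0.93 (Adgre1). Of the 7 cardiomyocyte markers, 6 were below 0 and 1 above, with a median of -0.07. Nothing is read from these common signs. The part of fibroblasts and macrophages in the levels of Actb and of the SRF targets was not tested. The endothelial markers summed to 587 to 674 and 606 to 658 CPM, and the pericyte markers to 1084 to 1184 and 1062 to 1243 CPM.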

How the data were processed

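Left ventricular poly(A) RNA of 6 mice (3 vehicle, 3 caffeine) was sequenced by the authors as single-end reads of 75 bases in one NextSeq500 run. Their processing ran FastQC, Tophat2 on the mm10 (GRCm38) assembly, and HTSeq with an Ensembl annotation. The deposited values are raw counts per gene and sample, not normalized and not pooled. The strand setting of the counting is not given in the sources used here.

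All further values were computed from those counts. Symbols, positions and exon lengths came from GENCODE release 21 (mouse series M), where 1081 of the 43629 identifiers have no symbol. Genes were filtered with filterByExpr of edgeR 4.0.16 in R 4.3.3 (minimum count 10, minimum total 15), which left 13092 of the 22407 genes with a count. The quasi-likelihood test (glmQLFit and glmQLFTest, TMM, treatment as the only term) followed, with Benjamini-Hochberg adjustment over all 13092 genes. A gene was past the thresholds with an adjusted p under 0.05 and a fold change over 1.5 in either direction. Shares per length divide counts by the length of the union of exons. Intervals of counts are 95% Wilson intervals. The scripts were tested on simulated data.

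Genes named were the 9 genes, in each list around SRF those past the thresholds and those with the largest and smallest log2 fold change, Nppa as the highest of the atrial markers, and the 5 genes with the most similar profile to Acta1 and to Abra (log2 CPM, prior count 2). Others are marked in the text as named after their values were seen or given as marker levels. One further list of genes is not reported here. The genes and lists were chosen with earlier results of these data known. Alternatives were edgeR's exact test, the Wald test of DESeq2 1.42.0, scaling by DESeq2-type size factors or by library size only, testing without the filter or without the fold change threshold, blocking on the replicate number and leaving out each replicate, and for shares raw counts, the longest transcript and the 4 muscle actins alone. Hearts of a group differed by more than sampling noise (chi-square per degree of freedom 5.37 to 14.0), so no library was counted as a copy of another.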

Additional observations from a re-analysis of the deposited data

How the results depend on the processing

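Acta1 kept its direction and stayed past the thresholds in all 12 alternatives (log2 fold change 1.39 to 1.66). Acta1 and Abra were chosen by fits of these same hearts, so their calls here describe the fits and support nothing. Abra kept its direction (0.73 to 0.94), and the count of the 9 genes past the thresholds was 1 to 2 when a replicate was left out, with 1 without vehicle replicate 2, vehicle replicate 3 or caffeine replicate 1 (Abra lost each time). SRF targets past the thresholds with a higher level numbered 1 in the fit reported, 2 by the exact test (Nppa and Nppb), 4 with no filter (Ankrd1, Fos, Nppa and Nppb), and 1 to 3 when a replicate was left out, with 3 without vehicle replicate 3. Lower targets and cofactors stayed at 0 in every alternative run. The replicate numbers did not pair the hearts (correlations of same-numbered hearts -0.0375 to 0.045), and in the fit that blocked on the replicate number 2 targets were called (Nppa and Nppb). Actg1 turned sign without a replicate (-0.70 to 0.33, among them 0.07), as did Srf (-0.02 to 0.08, and -0.05 with library size only) and Cnn1 (-0.96 to 0.12). Library size only moved the median of all genes by -0.08. The Acta1 share differed by 8.76 points from raw counts, 8.89 with the longest transcript and 8.39 to 9.80 without a replicate. Over all genes 14 were called, against 95 by the exact test, 67 by DESeq2, 27 with library size only, 240 with no filter, 40 with the block, and 4 to 27 without a replicate. The cause was not tested. Depth limits Actg2.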
